A study of Mus musculus with 6 samples.

Results

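Cone photoreceptors were examined as the 50 cells that carried the cell type name Cones in the annotation deposited with the counts, out of 8944 cells in all (0.559%). They came from retinas of mouse pups at postnatal day 14 that had gone through oxygen-induced retinopathy (OIR), a model in which a stay in high oxygen stops and prunes the growing retinal vessels and the return to room air leaves the tissue short of oxygen. All 6 libraries share this treatment, so no untreated retina is part of the comparisons. Replicates 1 to 3 of eNOS+/+ came from pups on the C57BL/6J background, and replicates 1 to 3 of eNOS-/- from pups with a knockout allele of Nos3, the gene of endothelial nitric oxide synthase, backcrossed to C57BL/6J. The pups were kept with CD1 fostering mothers. Each library pooled 3 to 5 retinas and was enriched with beads against CD31, an endothelial surface protein, before single cells were captured in droplets (Drop-seq). Cones were therefore cells carried through an endothelial enrichment, and their number says nothing on the number of cones in the retina.

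Cones are the photoreceptors of daylight and colour vision. Light is caught by an opsin, which activates the G protein transducin, which in turn removes the inhibitory subunit from a phosphodiesterase, so that cyclic GMP falls and cation channels in the outer segment close. Cones and rods run this cascade with separate sets of genes for most steps, and in the mouse a cone can make a short-wavelength opsin (Opn1sw), a medium-wavelength opsin (Opn1mw) or both.

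The promoters of 4 genes that recur below are printed here because they stand for the main patterns of expression: Opn1sw and Opn1mw, the cone opsins read side by side in single cells; Guca1a, a guanylate cyclase activator that was higher in cones than in rods; and Sag, the arrestin first described in rods that was abundant in both. Each stretch holds 240 bases on the gene's strand, from 250 bases before the RefSeq start (GRCm38.p6), at chr6:29380524-29380763 (minus strand), chrX:74127216-74127455 (plus), chr17:47400617-47400856 (minus) and chr1:87803430-87803669 (plus). Capitals mark the letters TAATCC on either strand, the core recognised by Crx and Otx2, homeodomain factors of photoreceptors.
Opn1sw: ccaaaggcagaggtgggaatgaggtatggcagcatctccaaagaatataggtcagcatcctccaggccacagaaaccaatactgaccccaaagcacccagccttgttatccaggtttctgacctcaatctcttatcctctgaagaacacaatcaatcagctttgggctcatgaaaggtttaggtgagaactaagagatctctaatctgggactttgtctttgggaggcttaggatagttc
Opn1mw: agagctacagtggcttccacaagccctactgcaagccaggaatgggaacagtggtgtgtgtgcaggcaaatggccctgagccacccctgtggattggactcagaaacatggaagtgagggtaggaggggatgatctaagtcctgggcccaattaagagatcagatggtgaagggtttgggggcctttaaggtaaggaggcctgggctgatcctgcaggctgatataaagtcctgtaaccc
Guca1a: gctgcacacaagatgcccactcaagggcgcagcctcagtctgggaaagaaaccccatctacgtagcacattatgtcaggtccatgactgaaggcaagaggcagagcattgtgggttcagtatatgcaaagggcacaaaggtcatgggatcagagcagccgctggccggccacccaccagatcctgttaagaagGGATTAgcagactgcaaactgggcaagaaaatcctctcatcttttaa
Sag: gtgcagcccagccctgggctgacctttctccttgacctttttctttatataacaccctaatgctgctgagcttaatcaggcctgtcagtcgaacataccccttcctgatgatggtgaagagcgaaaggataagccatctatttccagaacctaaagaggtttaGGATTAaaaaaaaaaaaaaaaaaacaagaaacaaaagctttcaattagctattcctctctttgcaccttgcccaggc
The letters stood once in Guca1a, ending 51 bases before the start, once in Sag, ending 81 bases before it, and in neither opsin window. Of 32851 promoter windows of this length, 6.05% held them. Among members with a window they were found in 1 of 7 cone phototransduction genes, 4 of 7 rod phototransduction genes and 3 of 7 genes of the shared list. A match is a string of letters in a window and was not related to binding.

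The name Cones matched the cells' markers. Of the 4 marker genes Arr3 (cone arrestin), Opn1sw, Gnat2 (the alpha subunit of cone transducin) and Pde6h (the inhibitory subunit of the cone phosphodiesterase), 26 cones had UMIs (unique molecular identifiers, each counted once per captured molecule) of all 4. Another 18 cones had UMIs of 3 markers and 6 cones of 2. Among the 8894 other cells, 10 had UMIs of 2 or more of these genes, 7 of them named Rods. All 50 cones lay in 1 cluster of 52 cells, whose other 2 cells were named endothelial. Since the clusters were built from these same UMIs, the marker levels describe the cells and are no test of them.

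Cones were found in 4 of 6 libraries. There were 6 cones in eNOS+/+ replicate 1, 0 in replicate 2 and 7 in replicate 3, against 4 in eNOS-/- replicate 1, 33 in replicate 2 and 0 in replicate 3. The libraries held between 415 and 3710 cells and between 617246 and 3350799 UMIs, and eNOS-/- replicate 2 was the largest. Nos3 itself stood at 16.5, 32.5 and 21.6 CPM (UMIs of the gene per 1000000 UMIs) over all cells of the eNOS+/+ libraries and at 18.9, 12.5 and 25.9 CPM in the eNOS-/- libraries, so the genotypes overlapped. Whether the 3′ reads of this assay fall outside the deleted part of the gene is not given in the sources used here, so Nos3 does not check the labels. No Nos3 UMI was seen in cones, where 3 UMIs would be 55.5 CPM.

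By the pooled median, cones were read more deeply than Rods, Neurons and structural endothelial cells. Tip and proliferative endothelial cells were deeper, with medians of 1007 and 963.5 UMIs. The median cone held 932.5 UMIs (range 157 to 3435) and 626.5 genes, against a median of 361 UMIs in the 1508 Rods, 579 in the 690 Neurons (a cluster rich in bipolar cell genes) and 491 in the 3335 structural endothelial cells. Depth differed between libraries, with cone medians of 2281 and 383 UMIs in eNOS+/+ replicates 1 and 3 and of 951.5 and 808 in eNOS-/- replicates 1 and 2. In eNOS+/+ replicate 3 the cone median lay below those of Neurons (421.5) and structural endothelial cells (720). It lay above both in the other libraries with cones. The 54093 cone UMIs were split as 13871, 4201, 4438 and 31583 over these 4 libraries. One cone UMI is thus 18.5 CPM in the pooled cones, and values of a few UMIs are coarse.

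Some cone barcodes may not be separate cells. In eNOS-/- replicate 2, 12 cones fell into 4 families of 2 to 4 barcodes that differ only in their last base, which leaves 42 families from 50 barcodes and 25 from the 33 of that library. These 12 cones held a median of 245.5 UMIs, against 1127 in the other cones. Members of a family had like opsins: 2 barcodes with Opn1mw alone, 3 with Opn1sw alone, 3 with both, and 4 of which 3 had both and 1 had Opn1sw alone. In eNOS+/+ replicate 1, 1 more pair differed by 1 base, at the first position. No cone barcode was seen in another library. Of the 7 Rods with 2 or more cone markers, 3 shared a family with a cone. The part of split barcodes in the counts of cells was not tested, and some counts with 1 barcode a family are given below.

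The share of cones among all cells did not separate the genotypes. It was 0.589%, 0% and 0.50% in the eNOS+/+ libraries (0.363% ± 0.318, SD, n = 3) and 0.224%, 0.889% and 0% in the eNOS-/- libraries (0.371% ± 0.463, SD, n = 3), a difference of 0.00801 percentage points (p = 1 by an exact permutation test over libraries, two-sided, and 1 after adjustment over the 2 shares). The 0 of 613 cells allows a share of up to 0.489%, and the 0 of 415 cells up to 0.723%. Among photoreceptors (Cones and Rods) the share was 1.52%, 0% and 11.1% in eNOS+/+ (4.21% ± 6.02, SD, n = 3) and 1.41%, 4.21% and 0% in eNOS-/- (1.87% ± 2.14, SD, n = 3), with p = 0.7 by the same exact test and 1 after adjustment. In both groups 1 library had no cone, and the groups overlapped on both scales. With 3 libraries against 3 the smallest p this test can give is 0.1, so it could not have passed 0.05. The libraries are separate pools of retinas, and no gene was tested between genotypes in cones, since 13 eNOS+/+ and 37 eNOS-/- cells from 2 libraries each leave too few UMIs.

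Every step of the cone cascade was read in these cells. The 11 genes of the cone phototransduction list together took 43129 CPM of the pooled cones (41460 to 45941 over the 4 libraries), against 462 CPM in Rods (217 to 667) and 1028 CPM in Neurons (875 to 1286). Rods and Neurons were taken from all 6 libraries where pooled and from the 4 libraries with cones where a range is given. UMIs were not divided by transcript length, so levels are compared below for 1 gene between cell types and not between genes.

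The receptors come first. Opn1sw, the opsin for short wavelengths, stood at 6633 and 4285 CPM in the cones of eNOS+/+ replicates 1 and 3 and at 7886 and 6681 CPM in those of eNOS-/- replicates 1 and 2. Opn1mw, the opsin for medium wavelengths, was at 3677, 4523, 3605 and 3040 CPM in these libraries. In the Rods of these 4 libraries neither opsin exceeded 99 CPM, so cones and rods did not overlap. Pooled, Opn1sw was 131-fold higher in cones than in Rods (95% exact counting interval 91.5 to 193) and Opn1mw 130-fold (78.9 to 228).

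The transducin subunits were also higher in cones than in Rods and Neurons. Gnat2, the alpha subunit, stood at 2956, 2618, 3155 and 3705 CPM in the cone libraries, and its pooled 3383 CPM was 101-fold above Rods (64.7 to 165). Gngt2, the gamma subunit, stood at 8507, 7855, 4281 and 6839 CPM and was 99.7-fold above Rods (73.5 to 138). Gnb3, the beta subunit, stood at 1514, 1190.2, 2479 and 2280 CPM, 15.4-fold above the 131 CPM of Rods. Gnb3 is also the beta subunit of ON bipolar cells, and Neurons held 747 CPM of it, so that cones were only 2.70-fold higher there and Gnb3 was the 1 tested gene of this list below the 4-fold limit against Neurons.

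The effector and the channel differed in how well they could be read. Pde6h, the inhibitory phosphodiesterase subunit, was at 12328, 17615, 12393 and 13710 CPM, which pooled to 13551 CPM against 56.4 CPM in Rods (240-fold, 173 to 344) and 10.7 CPM in Neurons. Pde6c, the catalytic subunit, was at 1153, 2142, 2028 and 1995 CPM and 84.1-fold above Rods. The channel subunits were sparse: Cngb3 gave 35 UMIs (647 CPM, 0 of them in eNOS+/+ replicate 3), and Cnga3 gave 6 UMIs (111 CPM, 0 of them in eNOS+/+ replicate 1). Slc24a2, the cone's sodium, calcium and potassium exchanger, gave 16 UMIs (296 CPM) and none in eNOS+/+ replicate 3. Arr3, which shuts the activated opsin off, was even across libraries at 4181, 5237, 4056 and 4179 CPM and 140-fold above Rods (88.3 to 233).

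**Figure D1:**
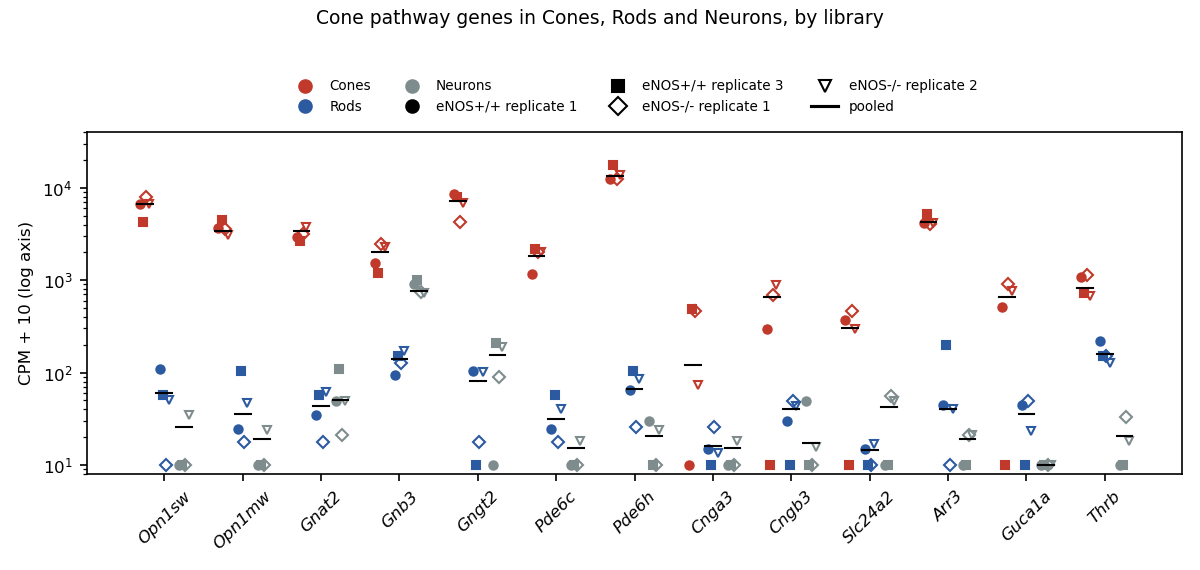
Level of 13 cone pathway genes in CPM plus 10 on a log axis, for Cones (red), Rods (blue) and Neurons (grey), where each symbol is 1 library (filled for eNOS+/+, open for eNOS-/-) and the black line is the pooled value. The cone opsin, transducin, phosphodiesterase and arrestin genes sit above 1000 CPM in every cone library, while Cnga3, Cngb3, Slc24a2 and Guca1a reach 0 in 1 cone library each.

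In single cells the same genes were widespread in cones. Pde6h was seen in 96% of cones, Arr3 in 90%, Gnat2 in 86%, Opn1mw in 74% and Opn1sw in 68%. In structural endothelial cells, which should lack these genes, the shares were 0.690%, 0.360%, 0.210%, 0.0300% and 0.210%. Thinned to 300 UMIs a cell, which left 40 cones, 955 Rods and 2303 of these endothelial cells and dropped 10, 553 and 1032 shallower ones, Pde6h was seen in 97.5% of cones, 0.628% of Rods and 0.261% of endothelial cells. Arr3 was seen in 65% of thinned cones, 0.733% of Rods and 0.0868% of endothelial cells.

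The cone marker UMIs found in Rods were not spread over all Rods. Of 112 UMIs of the 4 markers in 1508 Rods, 94 (83.9%) lay in the 7 Rods with 2 or more markers. Without these 7 cells, Rods kept 4 UMIs of Pde6h and 8 of Opn1sw, and cones were 2204-fold and 535-fold higher. The cells left out were picked by these same markers, so the rise in the folds was fixed by the choice. It is given as a description.

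Over the whole table, 952 genes had a mean pooled CPM of at least 200 in Cones and Rods, of which 49 were at least 4-fold higher in cones (5.15%) and 30 at least 4-fold lower (3.15%). Against Neurons, 86 of 1000 genes were higher (8.6%) and 63 lower (6.3%). Of the 49 genes above Rods, 32 were higher in each of the 4 libraries, and of the 86 above Neurons 62 were. Of the genes below, 27 of 30 and 59 of 63 were lower in each library. The cones of eNOS+/+ replicate 3 and eNOS-/- replicate 1 hold 4201 and 4438 UMIs. A gene of a few cone UMIs often has 0 there and counts as lower, so agreement over libraries says little for such genes. These are counts of folds with no test, because cells were assigned to types from the same UMIs. The split depends on the scaling: under TMM every fold over Rods is divided by 1.34 (a log2 shift of -0.42), which gives 37 genes higher and 56 lower, and folds over Neurons are divided by 1.27, which gives 64 higher and 88 lower. Median-of-ratios factors gave 34 and 43 against Rods and 61 and 76 against Neurons. Without eNOS-/- replicate 2, which holds 58.4% of the cone UMIs, 97 genes were higher than in Rods and 147 higher than in Neurons. The number of genes that pass the filter can change in these settings, so their counts are not to be read against 952 or 1000.

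The limit itself fell between close neighbours. Just inside it against Rods stood Nav1 at 4.2-fold and Hk2 and Acadm at 4.27-fold, and just outside Hspb6 at 3.98-fold and Tmsb10 at 3.97-fold. These neighbours are named for their place at the limit alone.

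All 9 cone phototransduction genes that passed the filter were at least 4-fold higher than in Rods, where 5.15% of all tested genes were, with a median log2 fold of 6.66 against 0.13 over all tested genes. Cnga3 and Slc24a2 were too low to pass. Against Neurons, where 8.6% of all tested genes were higher, 8 of 9 were, with a median of 8.39 against 0.04. The 10 largest folds over Rods with a higher level in each library belonged to Pde6h, Arr3, Opn1sw, Opn1mw, Kcne2, Gnat2, Gngt2, Pde6c, Ccdc136 and Qsox1, 7 of which are cone phototransduction genes. The filter passes a gene that is high in cones alone, so these counts describe the list and support nothing beyond it.

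**Figure D2:**
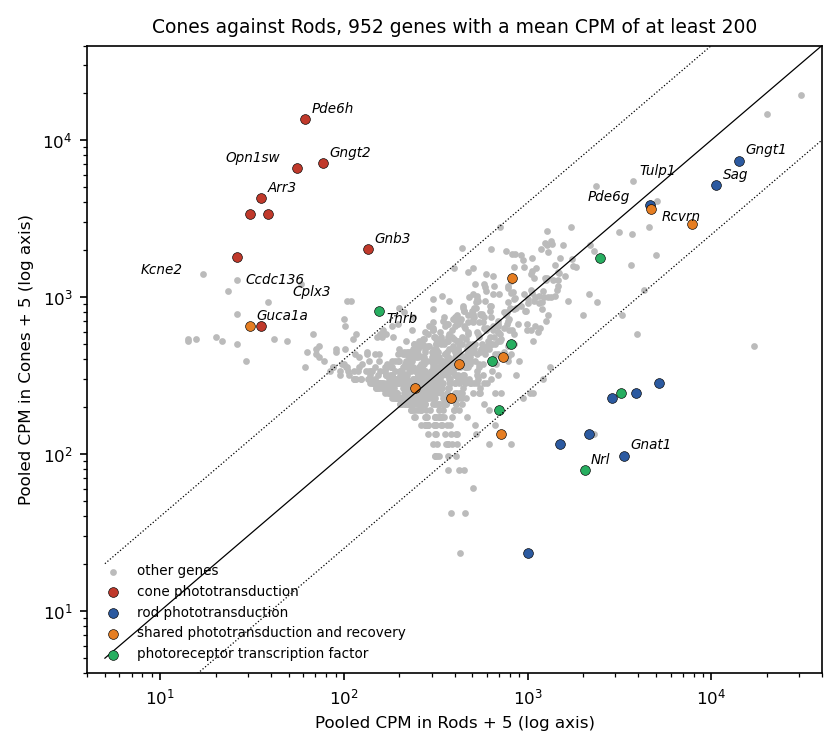
Pooled CPM plus 5 in Cones against Rods on log axes for the 952 genes that passed the filter, with 4 gene lists in colour, the line of equal values (solid) and lines 4-fold above and below it on the plotted scale (dotted). The cone phototransduction genes lie far above the line, while the rod list is split into genes far below it (Gnat1, Gnb1) and genes close to it (Gngt1, Sag, Pde6g).

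The rod list split into 2 sets inside cones. Of its 10 genes, 7 were at least 4-fold lower than in Rods (3.15% of all tested genes were) and 3 were within the limit: Gngt1, the rod transducin gamma subunit, Sag, and Pde6g, the inhibitory subunit of the rod phosphodiesterase. The median log2 fold of the list was -3.88.

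The low set holds catalytic and channel genes of rods. Gnat1, the rod transducin alpha subunit, stood at 72.1, 0, 225 and 95.0 CPM in the cone libraries (5 UMIs in all) and at 3429, 1476, 4201 and 3063 CPM in the Rods of the same libraries. The 2 ranges were far apart, and the pooled level was 36.3-fold lower in cones. Gnb1, the beta subunit, was 18.8-fold lower with 15 cone UMIs. Of the phosphodiesterase subunits, Pde6b was 16.1-fold and Pde6a 13.5-fold lower. Of the channel subunits, Cnga1 was 13.0-fold lower, and Cngb1 had 1 cone UMI (an observed ratio of 54.1 in favour of Rods, with an interval of 9.67 to 2139). The rod exchanger Slc24a1 was 16.6-fold lower.

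The other set was abundant in cones. Gngt1 stood at 6633, 9284, 8112 and 7346 CPM in the cone libraries, all below the 12049 to 15797 CPM of Rods in the same libraries. Pooled, cones held 52.4% of the rod level, and 94% of cones had a Gngt1 UMI, against 12.8% of Neurons and 4.53% of structural endothelial cells. Thinned to 300 UMIs a cell, the shares were 80%, 7.48% and 2.34%. Sag stood at 4181, 4523, 5408 and 5604 CPM, 48.3% of the rod level. Mouse cones are known to carry this arrestin beside Arr3. Pde6g stood at 5479, 3095, 2929 and 3356 CPM, 83.4% of the rod level, and was above Rods in 1 library and below in 3.

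The abundant genes did not stand to the low ones as they do in Rods. Against the summed UMIs of Gnat1, Pde6b, Cnga1 and Slc24a1 (37 in cones and 8052 in Rods), chosen after their low values in cones were seen, cones held 10.8 UMIs of Gngt1 per UMI, Rods 1.15 and Neurons 1.62. A choice of low genes raises the ratio in cones, so it is given as a description. In eNOS-/- replicate 2 the ratio was 10.1 in cones, 1.2 in Rods and 1.44 in Neurons, and in eNOS+/+ replicate 1 it was 9.2, 1.06 and 4.5, the last from 2 UMIs of the low genes. For Sag it was 7.51 in cones and 0.867 in Rods, and for Pde6g 5.62 and 0.376. Gnat1 was seen in 10% of cones, 3.91% of Neurons and 2.34% of structural endothelial cells, and after thinning in 2.5%, 2.37% and 0.868%.

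**Figure D3:**
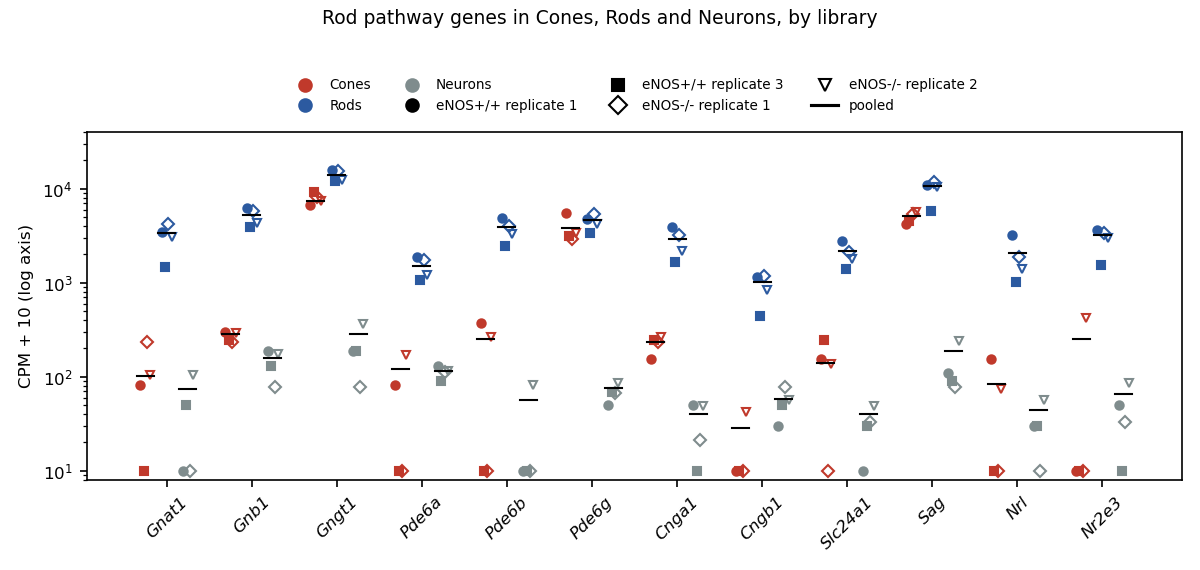
Level of 12 rod pathway genes in CPM plus 10 on a log axis, drawn as in the plot of cone pathway genes, with 1 symbol a library and a black line at the pooled value. Gngt1, Pde6g and Sag reach 2929 CPM or more in every cone library, while Gnat1 and the other rod genes shown lie at or below 412 CPM in cones.

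The genes that both photoreceptors use to recover from light lay mostly near the rod level. Of 9 tested members of this list, 1 was at least 4-fold higher than in Rods, 1 was lower and 7 were within the limit (5.15% and 3.15% of all tested genes were higher and lower), with a median log2 fold of -0.36. Against Neurons 4 of 5 were higher, where 8.6% of all tested genes were. Guca1a, which activates guanylate cyclase when calcium is low, was the higher gene, at 505, 0, 901 and 760 CPM in the cone libraries and 25-fold above Rods (13.6 to 47.6). It had 0 UMIs in Neurons. With Neurons set to 3 UMIs, cones were 121-fold higher, which leaves out the counting error of the cone UMIs. Its neighbour on chromosome 17, Guca1b, a second activator of this kind, was 5.47-fold lower than in Rods (7 cone UMIs).

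Recoverin (Rcvrn), a calcium sensor of the opsin kinase, stood at 4326, 3571, 1577 and 3641 CPM and 77.8% of the rod level. Phosducin (Pdc), which binds transducin beta and gamma subunits, stood at 36.8% of the rod level and was lower in all 4 libraries. Rgs9, which speeds the shut-off of transducin, stood at 1313 CPM against 812 CPM in Rods (1.62-fold), was higher in 3 libraries and had no UMI in eNOS+/+ replicate 3. The kinase Grk1 (370 against 417 CPM), the cyclase Gucy2e (0.58-fold), Rgs9bp (1.08-fold) and Gnb5 (0.56-fold) were within the limit, while Gucy2f and Kcnv2 gave 1 and 2 cone UMIs.

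Of 7 tested transcription factors of photoreceptors, 3 were past the limit against Rods: 1 was higher and 2 were lower (5.15% and 3.15% of all tested genes were). Thrb, the thyroid hormone receptor needed for medium-wavelength opsin, stood at 1081, 714, 1127 and 665 CPM in the cone libraries and at 207, 143, 140 and 115 CPM in the Rods of the same libraries, so the ranges did not overlap. Pooled it was 5.45-fold above Rods (3.73 to 7.85) and 76.2-fold above Neurons. Nrl, which directs cells to the rod fate, had 4 cone UMIs and was 27.5-fold lower than in Rods (10.7 to 101). Nr2e3, which represses cone genes in rods, had 13 cone UMIs, all in eNOS-/- replicate 2, and was 13.4-fold lower.

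The 4 other tested factors were within the limit, though not all of them under TMM. Among them Neurod1 stood at 1514, 2618, 2479 and 1646 CPM and 70.7% of the rod level. Crx was at 62.2% and Otx2 at 60.8% of the rod level, with 27 and 21 cone UMIs. Rxrg, the retinoid receptor that holds back Opn1sw in cones, gave 4 UMIs in cones, all in eNOS-/- replicate 2, and 0 in Rods. With Rods set to 3 UMIs the ratio was 16.2, which leaves out the counting error of the 4 cone UMIs. Sall3, known for opsin expression in cones, gave 3 UMIs in cones and 0 in Rods (the counting interval of the ratio starts at 5.01), and Esrrb gave none.

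Cones carried the 2 opsins alone and together. UMIs of both opsins were seen in 23 of 50 cones (46%, exact interval 31.8 to 60.7), Opn1mw alone in 14 (28%), Opn1sw alone in 11 (22%) and neither in 2. By library, both were seen in 4 of 6, 2 of 7, 2 of 4 and 15 of 33 cones. With 1 barcode a family the share with both was 45.2%, and among the 33 cones with at least 500 UMIs it was 45.5%. Thinned to 300 UMIs it was 25%, so the share depends on depth. After the same thinning Opn1sw was seen in 0.942% of Rods and Opn1mw in 0.733%.

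Opn1sw made up 66.2% of the 538 opsin UMIs (exact interval 62.0 to 70.2). The intervals of these shares take each UMI as a separate draw, leave out the spread between cones and are thus too narrow. In eNOS+/+ replicate 1, a single cone gave 60 of the 92 Opn1sw UMIs. It made up 64.3% and 48.6% in eNOS+/+ replicates 1 and 3 and 68.6% and 68.7% in eNOS-/- replicates 1 and 2. The value of 48.6% rests on 37 UMIs from 7 cones. Even its counting interval (31.9 to 65.6) reaches those of the other libraries. Among the 31 cones with at least 5 opsin UMIs, Opn1sw was under 10% of them in 5 cones, over 90% in 8 and between these in 18. Some of the single-opsin cells were deep. The deepest cone, with 3435 UMIs, held 11 Opn1mw UMIs and 0 of Opn1sw. Another with 3013 UMIs held 36 of Opn1sw and 0 of Opn1mw. A count of 0 in a cell still allows a low level, and the part of depth in these cells was not tested. Position in the retina was not recorded, so no value could be set against the known gradient of the opsins.

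**Figure D4:**
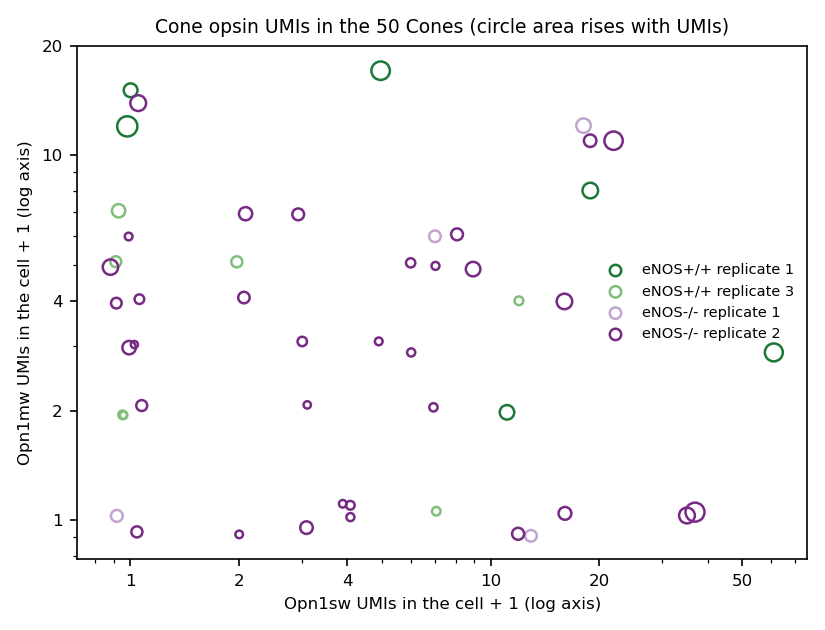
UMIs of Opn1sw and Opn1mw in each of the 50 cones, plus 1 on log axes with a small random shift to part equal values, coloured by library and with circle area rising with the cell's UMIs. Cells spread from the left edge (Opn1mw alone, 14 cones) through the middle (both, 23 cones) to the lower edge (Opn1sw alone, 11 cones). Cones with both are seen in all 4 colours, while none of the 6 cones of eNOS+/+ replicate 1 had Opn1sw alone and none of the 4 of eNOS-/- replicate 1 had Opn1mw alone.

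Genes of the outer segment, where the cascade sits, were mostly at or below the rod level. Of 10 tested genes of this list none was at least 4-fold higher than in Rods and 3 were lower (3.15% of all tested genes were), with a median log2 fold of -1.37, and 4 of 5 were higher than in Neurons. Tulp1, which carries proteins to the outer segment, stood at 4902, 6189, 6084 and 5541 CPM in the cone libraries, above Rods in each (1.45-fold, 1.29 to 1.64). Rpgrip1, a protein of the connecting cilium, stood at 43.9% of the rod level. The disc rim genes were lower: Prph2 was 3.89-fold below Rods, just within the limit, and Rom1 0.23-fold of the rod level. Under TMM Prph2 falls past the limit and the fold of Tulp1 over Rods is smaller. Rp1, of the axoneme, stood at 0.15-fold.

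Of 10 genes of the visual cycle, which restores the chromophore of the opsins, 4 had cone UMIs. Rbp3, which carries retinoids between cells, stood at 1586, 1190.2, 2479 and 1108 CPM and was 2.09-fold above Rods, higher in all 4 libraries. Rdh12 was 3.75-fold lower (19 UMIs), and under TMM it falls past the limit. Abca4 and Rdh10 gave 4 and 1 UMIs. Rpe65, Lrat, Rdh5, Rlbp1, Rdh8 and Dhrs3 gave none.

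The synaptic list stood at a like summed level in the 3 cell types, 8652 CPM in cones, 6764 in Rods and 7283 in Neurons. Of 12 tested genes 1 was at least 4-fold higher than in Rods and none lower (5.15% and 3.15% of all tested genes were), with a median log2 fold of 0.09. That gene was Cplx3, a complexin of ribbon synapses, at 793, 476, 676 and 1108 CPM in the cone libraries and 48 to 132 CPM in the Rods of these libraries, so the ranges did not overlap (9.10-fold, 6.20 to 13.3). Against the 1108 CPM of Neurons, cones were at 0.85-fold. Syt1, the vesicle calcium sensor, was 1.86-fold above Rods in all 4 libraries, Snap25 was at 96.5% of the rod level and Stx3, the syntaxin of ribbon synapses, was 1.31-fold higher with 2 libraries on each side. Under TMM the folds of Stx3 and Cabp4 fall below 1. Cabp4, a calcium-binding protein of photoreceptor terminals, was 59.4-fold above Neurons and 1.18-fold above Rods.

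Energy genes were within the limit against Rods with 1 exception, though not all of them were near the rod level. Of 11 tested genes of glycolysis and energy supply, Hk2, a hexokinase, was 4.27-fold above Rods (19 UMIs, 2.39 to 7.32, higher in all 4 libraries), 10 were within the limit and the median log2 fold was -0.0028. Over all tested genes, 5.15% were higher than in Rods. Under TMM the fold of Hk2 falls under 4. Hk1, another hexokinase, went the other way at 0.42-fold of the rod level (7 cone UMIs) and was above Rods in none of the 4 libraries. It was chosen after its value was seen. Ckb, the brain creatine kinase, stood at 1586, 2380.4, 2253 and 2121 CPM in the cone libraries and was 3.23-fold above Rods (2.59 to 4.00), higher in all 4. Pkm, Ldha and Gapdh stood at 99.8%, 93.0% and 87.9% of the rod level. Against Neurons, 3 of 12 tested genes were lower and none higher (6.3% and 8.6% of all tested genes were). Pfkp, a phosphofructokinase, had 2 cone UMIs (an observed ratio of 57.2 in favour of Neurons, 15.8 to 473), which put it among the 5 genes furthest below Neurons.

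**Figure D5:**
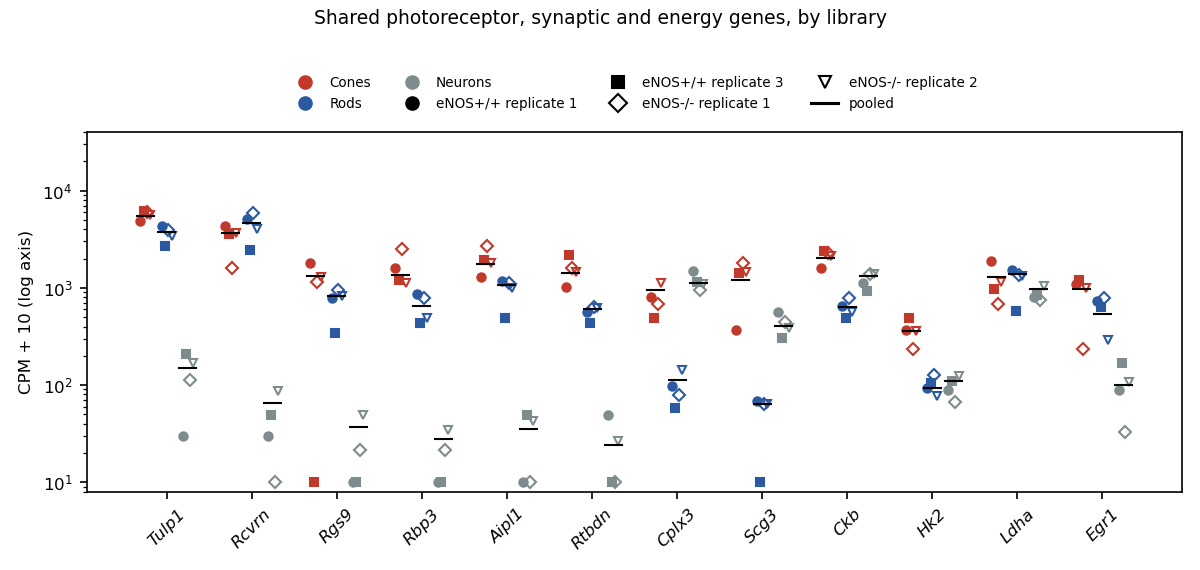
Level of 12 genes of shared photoreceptor function, synapse, energy supply and early response in CPM plus 10 on a log axis, drawn as in the plot of cone pathway genes. Cplx3 and Scg3 in cones lie above every Rods library, Ckb lies above Rods by 3.23-fold pooled, and Ldha overlaps in all 3 cell types.

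Since every retina had gone through OIR, hypoxia targets were read in cones as levels and not as a response. Of 14 genes, 8 had cone UMIs and 3 passed the filter. Ldha and Pgk1 (82.9% of the rod level, 14 UMIs) were within the limit, and Ndrg1, with 2 cone UMIs, was below it (an observed ratio of 12.2 in favour of Rods, 3.36 to 102). Vegfa, the vessel growth factor, gave 10 UMIs in cones (185 CPM), against 35.0 CPM in Rods and 235 CPM in Neurons. They came from 2 libraries, 288 CPM in eNOS+/+ replicate 1 and 190 CPM in eNOS-/- replicate 2. P4ha1 gave 4 UMIs. The summed list stood at 1941 CPM in cones (901 to 2667), 2791 CPM in Rods and 3336 CPM in Neurons.

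Stress and early response genes varied between the cone libraries. Egr1, an early response factor, stood at 1081, 1190.2, 225 and 982 CPM in cones and at 725, 619, 783 and 278 CPM in Rods of the same libraries, so cones were higher in 3 of 4. Fos came from 2 libraries (288 and 602 CPM). Hsp90aa1, a chaperone, stood at 4109, 3095, 676 and 1995 CPM and 68.3% of the rod level pooled. Jun gave 4 UMIs. None of the 3 tested genes passed the limit against Rods (5.15% of all tested genes were higher and 3.15% lower), and 1 of 3 was higher than in Neurons (8.6% of all were), Egr1 at 10.6-fold. The summed level ran from 1127 CPM in eNOS-/- replicate 1, with 4 cones, to 5713 CPM in eNOS+/+ replicate 3.

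Markers of bipolar cells were low in cones. Of 10 bipolar genes 6 were at 0, and the list summed to 222 CPM in cones (0 to 380 over libraries), 367 in Rods and 14496 in Neurons. All 8 tested bipolar genes were at least 4-fold below Neurons, where 6.3% of all tested genes were. Among them Trpm1, the channel of ON bipolar cells, had 1 cone UMI (an observed ratio of 339 in favour of Neurons, 60.9 to 13413). Isl1 had 0, and with cones set to 3 UMIs it was 50.1-fold lower. Pcp4, with 1 cone UMI (an observed ratio of 200.3, 35.9 to 7915), and Gnao1, with 4 (24.4-fold), complete the 5 genes furthest below Neurons together with Pfkp.

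The amacrine and horizontal cell list summed to 961 CPM in cones, 559 in Rods and 1264 in Neurons, and the Muller glia list to 462, 456 and 340. Of 11 amacrine and horizontal cell genes 7 were at 0, and Calb1, a calcium-binding protein, made up most of the 961 CPM with 46 UMIs, at 850 CPM in cones, 440 in Rods and 522 in structural endothelial cells. Of 6 ganglion cell genes 4 were at 0. Of 8 Muller glia genes 4 were at 0 and Clu, a secreted chaperone, gave 16 of the 25 UMIs, while Vim, Apoe and Glul gave 4, 3 and 2. The erythroid list summed to 73.9 CPM in cones and 6838 in structural endothelial cells, the microglial list to 73.9 CPM against 11985 in immune cells, the mural list to 185 CPM against 23911 in mural cells, and the pigment epithelium list to 0. Of 6 mural genes 4 were at 0, as were 4 of 6 microglial genes and 1 of 4 erythroid genes.

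Endothelial transcripts were present at the level of the other neural cells. The list summed to 850 CPM in cones (577 to 1904), 1388 in Rods, 999 in Neurons and 8818 in structural endothelial cells. Pecam1, which encodes the CD31 protein used for the enrichment, gave 25 of these UMIs, at 462 CPM in cones, 590 in Rods, 642 in Neurons and 1199 in structural endothelial cells. Cldn5, Kdr and Flt1 gave 3, 4 and 6 UMIs. The deposited doublet score had a median of 0.272 in cones, 0.191 in Rods, 0.262 in Neurons and 0.197 in structural endothelial cells, and no caller was run again here.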

How the data were processed

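Single-cell libraries were made by Drop-seq from CD31-enriched retinal cells of 6 samples. The authors aligned the reads with kb-python to GRCm38, counted UMIs per gene and cell, removed cells with few genes or many mitochondrial reads as well as red blood cell and pigment epithelium clusters, integrated the replicates and clustered and named cells with Seurat 3. The deposited counts are raw UMI counts, not normalized, and the deposited metadata give each cell's library, cell type, cluster and a doublet score. Another 13 columns of the metadata were not used. Cells with the deposited name ECs were counted here as structural endothelial cells.

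From these counts, UMIs were summed per cell type, and per library, and divided by their total to give CPM (Python 3.11.15, numpy 2.4.6, scipy 1.17.1, pandas 2.3.3). Genes with a mean CPM of at least 200 in the 2 types compared were kept, and those at least 4-fold apart were counted. To call and rank genes, a lower sum under 3 UMIs was set to 3. Folds against 0 UMIs are printed with the 0 set to 3 UMIs, which leaves out the counting error of the other side. Those against 1 or 2 UMIs are printed as the observed ratio. Ratio intervals are exact 95% intervals conditional on the summed UMIs, and they cover counting error only. The counting of folds was also run on counts simulated from the pooled Rods, with known changes well past the limit. These had no spread between cells or libraries, so the run says nothing on calls near the limit. Cells were thinned by drawing UMIs without replacement. TMM factors came from edgeR 4.0.16 in R 4.3.3. Shares of cones were compared over libraries by a two-sided exact permutation test, with Benjamini-Hochberg adjustment. Settings varied were the filter, the fold limit, the scaling, the depth of cells, barcode families, the denominator and each library in turn.

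The members and the gene lists were chosen with earlier results of these data known. Genes were named by a rule: the 4 markers, all genes of the cone, rod and shared phototransduction lists, the 10 largest folds over Rods and over Neurons that were higher in each library with at least 1000 cone UMIs, the 5 lowest in each comparison, and of each other list the 4 members highest in cones; some genes are not reported here. Coordinates are from GENCODE vM21 (GRCm38) and promoters from RefSeq (GRCm38.p6).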

Additional observations from a re-analysis of the deposited data

How the results depend on the processing

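The genotype difference in the share of cones among all cells (eNOS-/- minus eNOS+/+, 0.00801 percentage points) changed sign with families of barcodes counted as 1 cell (-0.0995), with cells other than endothelial as the denominator (-0.135), without eNOS+/+ replicate 2 (-0.174) and without eNOS-/- replicate 2 (-0.251). Leaving out each library gave -0.251 to 0.194. Among photoreceptors the difference of -2.34 points turned to 1.11 without eNOS+/+ replicate 3, and leaving out each library gave -4.44 to 1.11. No p could fall under 0.05 in any setting, since so few libraries do not allow it. For cells with at least 500 UMIs the photoreceptor share had no value, since 1 or more libraries held no such photoreceptor. The replicate numbers are shared by the genotypes in the labels but name no common litter or batch. With the replicate number as a block (exact sign-flip test), the differences of 0.00801 and -2.34 points had p = 1 and p = 0.75, and the smallest p it allows is 0.25. Too few cones carry the numbers to check a pairing.

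The number of genes tested changes with the filter, the scaling and the cells used, and it is not given for these settings. The counts that follow are thus no shares. Against Rods, the counts of genes higher and lower were 1353 and 57 with no filter, 113 and 57 at a mean CPM of 100, and 156 and 93 at a 2-fold limit. They were 29 and 13 at an 8-fold limit, 19 higher at a mean CPM of 400, and 56 lower under TMM. Against Neurons they were 860 and 119 with no filter, 189 and 119 at a mean CPM of 100, 42 and 31 at 400, 193 and 133 at a 2-fold limit, and 56 and 38 at an 8-fold limit. Leaving out each library gave 49 to 97 higher and 26 to 31 lower against Rods, and 85 to 147 higher and 55 to 70 lower against Neurons. The 97 and 147 higher genes came without eNOS-/- replicate 2, as did the 55 lower than in Neurons. Settings chosen after seeing the data, with 1 barcode a family or without the 7 Rods with cone markers, gave 51 higher and 31 lower against Rods each time. With 1 barcode a family, 87 genes were higher and 66 lower than in Neurons. The share of cones with both opsins was 25% thinned to 300 UMIs, 27.3% thinned to 500, and 43.2% to 48.8% leaving out each library. In all, 69 of 98 alternatives left a count of genes within 1.5 times its value, the share with both opsins within its exact interval, or a genotype difference with the same sign and side of 0.05. Another 24 moved further and 5 changed sign. Some of the 69 could not have moved. The side of 0.05 was fixed by the number of libraries, and the block keeps the difference itself. Leaving out a library with no cone keeps the share with both opsins.

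Depth limits what can be said of genes of a few UMIs: a gene with 0 of 54093 cone UMIs may still stand at up to 55.5 CPM. Since 66% of the cones come from 1 library, pooled values weigh that library most.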

Other observations

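Outside the fixed lists, several genes set cones apart from Rods. Kcne2, a potassium channel accessory subunit, stood at 1586, 1190.2, 2028 and 1235 CPM in the cone libraries and at 24 CPM or less in the Rods of the same libraries (114-fold pooled, 54.9 to 273), with 237 CPM in Neurons. Ccdc136, a coiled-coil protein, was 59.8-fold above Rods (33.4 to 115) and 2.61-fold above Neurons, with 2 libraries on each side there. Qsox1, a sulfhydryl oxidase, was 56.6-fold above Rods (28 UMIs), and Gckr, the glucokinase regulator, was 50.3-fold above Rods and had 1 UMI in Neurons (an observed ratio of 301, 49.98 to 12312). Its cone level ran from 190 CPM in eNOS-/- replicate 2 to 1298 CPM in eNOS+/+ replicate 1. Rtbdn (98.7-fold), AI847159 (120-fold) and A930003A15Rik (83.2-fold) were far above Neurons and within 2.38-fold of Rods.

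The following genes were chosen after their values were seen. Among the 49 genes above Rods were Acsl3, which activates fatty acids, at 7.05-fold with 25 UMIs, Idh3a, of the citric acid cycle, at 7.01-fold with 26, Me2, a mitochondrial malic enzyme, at 6.23-fold with 19, and Acadm, of fatty acid oxidation, at 4.27-fold with 19. The first 3 were higher in 4 of 4 libraries and Acadm in 3. Under TMM the fold of Acadm falls under 4, as does that of Hk2. Suclg1 and Mdh2, also of the citric acid cycle, were within the limit at 1.53-fold and 1.40-fold. Also above Rods were Scg3, a granin of secretory granules, at 22.5-fold, Nrcam, an adhesion molecule, at 36.4-fold, and Camk2b, a synaptic kinase, at 21.8-fold, all higher in 4 of 4 libraries. Nxnl1, whose product from rods is known to keep cones alive, was 7.29-fold below Rods (6 cone UMIs), and Aipl1, a chaperone of the phosphodiesterase, was 1.67-fold above Rods in all 4 libraries.

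Opn1sw and Ccdc136 are neighbours on chromosome 6, with 7840 bp between the annotated genes (GENCODE, GRCm38). Of the 48 genes higher than in Rods that have a chromosome, 7 lie on chromosome 6 (14.6%), where 5.39% of the tested genes lie, and 3 lie on the X chromosome (6.25% against 3.38%). These shares are descriptions with no test.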
